A study of Mus musculus with 2 samples.

Results

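*Arl6ip1* and 9 genes whose products bind spindle microtubules or act in cell division were read along the cell cycle of cultured mouse neural progenitors. The members were taken by their symbols from the processed expression table, in which all 10 were present among 10666 genes. They had been chosen by their measured course along the cell-cycle position in these same cells, their log2 values and the place of their maximum, so the values below describe that course and no test is attached to them. The samples are 2 replicate cultures of 1 condition, namely wild-type C57BL/6 neurospheres of the dorsal telencephalon. The embryos were at embryonic day 14.5, and the medium held EGF and bFGF at 10 ng/ml each and no retinoic acid. No allele, drug or second genotype enters the design, and whether the cultures came from separate embryos or litters is not given in the sources used here. Such spheres float freely, consist of neural stem cells and progenitors and hold cells at all stages of the cycle. Single cells were captured in droplets, where each RNA molecule receives a unique molecular identifier (UMI).

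The mitotic spindle is a bipolar array of microtubules that is built as the nucleus breaks down and that pulls the sister chromatids apart. After the chromosomes separate, antiparallel microtubules between them form the midzone, which places the cleavage furrow, and an actomyosin ring then divides the cell. Many messages for these proteins are made in G2 and mitosis, in part under DREAM and B-Myb-FoxM1 complexes that bind CHR elements and under NF-Y, which binds CCAAT boxes. Many of the proteins are then degraded through the anaphase-promoting complex, so message and protein can follow different courses. Proliferating progenitors of the cortex divide often and depend on a well oriented spindle, which is one reason why spindle genes are studied in microcephaly.

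The members have different places in this process. NUSAP1 (nucleolar and spindle associated protein) stabilises and bundles microtubules near chromosomes, and HMMR, also called RHAMM, helps to nucleate microtubules and to orient the spindle. DLGAP5, also called HURP, stabilises the kinetochore fibres. CKAP2 and CKAP2L (also called radmis) are related proteins of the spindle, and CKAP5, also called chTOG, is a microtubule polymerase that is used outside mitosis as well. PRC1 bundles the antiparallel microtubules of the midzone, and ANLN (anillin) is a scaffold of the contractile ring. The role of CCDC34, a coiled-coil protein, is less well defined. ARL6IP1 is different in kind: it is a membrane protein that shapes tubules of the endoplasmic reticulum.

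In GENCODE vM21 on GRCm38, *Arl6ip1* is a protein-coding gene at chr7:118118891-118129662 on the minus strand, with no overlapping gene. *Hmmr* lies at chr11:40701395-40733422 (minus), *Dlgap5* at chr14:47387779-47418407 (minus) and *Ckap2* at chr8:22168160-22185819 (minus), again with no overlap. *Nusap1* at chr2:119618298-119651244 (plus) overlaps *Oip5* on the other strand and *n-R5s204* on its own. *Prc1* at chr7:80294450-80316259 (plus) overlaps *Rccd1* and *6330403N20Rik* on the other strand. *Ckap2l* at chr2:129268210-129297212 (minus) overlaps *Gm14024*, and *Ccdc34* at chr2:110017817-110173360 (plus) overlaps *Ccdc34os*, both on the other strand. *Ckap5* spans chr2:91526762-91620664 (plus) and holds *Snord67*, and *Anln* spans chr9:22332012-22389188 (minus) and overlaps *Gm48646*, both on the same strand. How strand was used in counting is not given in the sources used here. Whether reads of *Nusap1*, *Prc1*, *Ckap2l* and *Ccdc34* were kept apart from those of their antisense neighbours was not checked.

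The promoters of *Arl6ip1* and of the 3 members with the closest relation to the position, *Hmmr*, *Prc1* and *Nusap1*, are shown because the members' levels were high together along the cycle. Each runs from 250 bases before to 50 after the gene's start in RefSeq on GRCm38.p6, 5′ to 3′ on the gene's strand. Capitals mark TTTGAA, the usual CHR core, and CCAAT, either as written or as their reverse complements TTCAAA and ATTGG. The regions are chr7:118129576-118129875 (minus), chr11:40733388-40733687 (minus), chr7:80294201-80294500 (plus) and chr2:119618048-119618347 (plus).
Arl6ip1: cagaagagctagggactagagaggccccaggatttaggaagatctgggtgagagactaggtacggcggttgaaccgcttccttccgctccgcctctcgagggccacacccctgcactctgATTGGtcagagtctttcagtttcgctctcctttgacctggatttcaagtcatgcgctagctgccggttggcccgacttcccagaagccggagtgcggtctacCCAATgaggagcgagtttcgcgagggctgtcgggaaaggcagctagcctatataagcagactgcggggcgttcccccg
Hmmr: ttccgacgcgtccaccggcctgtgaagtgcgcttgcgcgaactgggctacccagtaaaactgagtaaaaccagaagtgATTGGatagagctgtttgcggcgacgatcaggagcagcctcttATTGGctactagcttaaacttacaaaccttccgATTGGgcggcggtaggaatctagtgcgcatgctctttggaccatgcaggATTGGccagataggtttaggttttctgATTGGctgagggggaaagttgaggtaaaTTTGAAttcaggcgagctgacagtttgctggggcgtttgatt
Prc1: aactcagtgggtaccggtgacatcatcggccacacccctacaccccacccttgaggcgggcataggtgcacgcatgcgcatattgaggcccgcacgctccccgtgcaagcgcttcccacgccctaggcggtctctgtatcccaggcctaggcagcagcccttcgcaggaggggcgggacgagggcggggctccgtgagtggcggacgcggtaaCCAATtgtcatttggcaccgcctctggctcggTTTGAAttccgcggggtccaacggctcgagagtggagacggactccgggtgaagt
Nusap1: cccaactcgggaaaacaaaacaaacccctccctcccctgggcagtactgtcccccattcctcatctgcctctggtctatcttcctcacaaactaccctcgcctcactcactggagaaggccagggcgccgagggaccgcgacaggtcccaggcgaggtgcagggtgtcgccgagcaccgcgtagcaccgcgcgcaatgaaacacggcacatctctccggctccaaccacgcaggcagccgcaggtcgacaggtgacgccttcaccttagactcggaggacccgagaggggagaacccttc

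Of the 10 members, 9 had a promoter among the 32851 of the RefSeq set (not *Dlgap5*). TTTGAA was found on either strand in 7 of these 9 windows, against 17.9% of all promoters, and was not found in *Arl6ip1* or *Nusap1*. CCAAT was found in 7 of 9, against 37.4% of all promoters, and was not found in *Nusap1* or *Anln*. Both were found together in 6 of 9 (*Ckap5*, *Ccdc34*, *Ckap2l*, *Prc1*, *Ckap2* and *Hmmr*), against 7.52% of all promoters. *Hmmr* held 5 copies of CCAAT, all in reverse, with the nearest first base at -20, and TTTGAA at 8 bases past the start. *Prc1*, for which the earlier of its RefSeq starts is shown, held CCAAT at -37 and TTTGAA at -5, while *Arl6ip1* held CCAAT at -130 (reverse) and -28 and no TTTGAA. The other CHR form, TTCGAA, was in 0 of 9 windows (1.56% of all promoters), and the E2F forms TTTCGCGC and TTTGGCGC were in 0 of 9 (0.813%). A match of letters is not a binding site, and no match says only that the letters are not in the window.

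Cultures 1 and 2 held 5748 and 7057 cells, with a median of 19477 and 14637 total UMIs per cell. The label was checked against marker genes: among 6 neural progenitor markers in the table, *Fabp7*, *Vim*, *Slc1a3* and *Nes* were detected in 89.8% to 100% of cells in each culture, *Hes1* in 44.5% and 50.5% and *Pax6* in 21.1% and 23.1%. *Sox2* and *Hes5* were not analysed here, nor were any of the listed markers of microglia, endothelium, fibroblasts and erythroid cells. The other lists ranged widely in culture 1 and culture 2: 3 neuronal markers from 3.78% to 77.7% and from 1.56% to 63.6%, 4 of oligodendrocyte progenitors from 4.26% to 97.3% and from 0.751% to 91.9%, and 2 of astrocytes from 18.6% to 43.2% and from 6.65% to 28.8%. The upper ends were set by *Map2* among the neuronal markers (77.7% and 63.6%) and by *Olig2* among those of oligodendrocyte progenitors (97.3% and 91.9%). Detection of these markers thus does not single out 1 cell type. Between the cultures, 48 cell barcodes were shared, which is 0.835% of culture 1.

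The authors' cell-cycle position is an angle between 0 and 2π computed from the expression of cell-cycle genes. On this scale S phase begins near 0.5π, G2 and mitosis near π, the middle of mitosis lies near 1.5π, and the arc from 1.75π through 0 to 0.25π holds G1 and G0 cells. The cells do not fill the circle evenly. The arc from 1.25π to 1.5π held 85 cells of culture 1 and 279 of culture 2, and the next one up to 1.75π held 64 and 189. The class just before, starting at π, held 1064 and 1120. Levels past 1.25π therefore rest on few cells, most of all in culture 1. Which genes entered the position is not given by gene in the sources used here, and members that entered it are not independent of it.

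Each gene's log2(value + 1) was fitted along the position with a periodic loess line in each culture, and R² is the share of the variance among cells that the line takes up. Each of the 10 members reached 0.05 in culture 1 and in culture 2 alike, as the choice of members implies, and 416 of 10666 genes (3.90%) did so. All 10 also had the maximum of their line between π and 1.5π in both cultures, against 165 genes (1.55%). *Hmmr* (0.627 in culture 1 and 0.570 in culture 2), *Prc1* (0.551 and 0.547) and *Nusap1* (0.521 and 0.491) had the highest R² of the members. *Ckap2l* followed (0.434 and 0.420), then *Ccdc34* (0.330 and 0.359), *Ckap2* (0.358 and 0.327) and *Arl6ip1* (0.267 and 0.337). *Dlgap5* (0.237 and 0.198), *Ckap5* (0.183 and 0.180) and *Anln* (0.146 and 0.168) had the lowest. The member nearest to the threshold of 0.05 was thus *Anln*, and no member lay below it. In the order of all genes by the lower R² of the cultures, the members ran from place 17 (*Hmmr*) to place 182 (*Anln*), with *Top2a*, the topoisomerase that serves as a landmark of G2, at place 10.

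**Figure D1:**
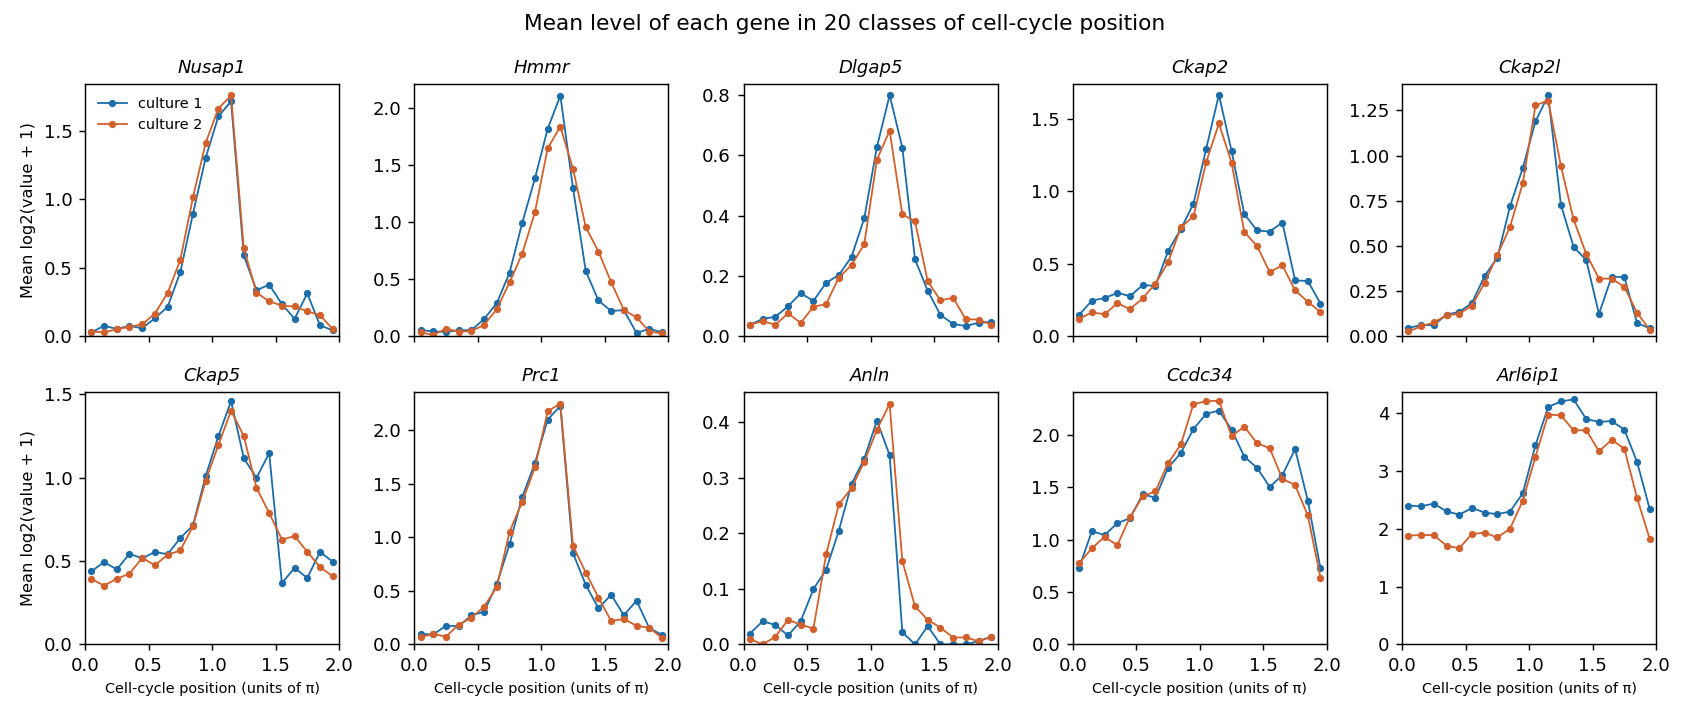
Mean log2(deposited value + 1) of each of the 10 genes (vertical axes, each from 0 and with its own scale) in 20 classes of cell-cycle position of width 0.1π (horizontal axes, units of π). Blue points are culture 1 and orange points culture 2. Of the genes, 9 are highest near 1.1π and lower in G1, while *Arl6ip1* stays high past 1.5π and never comes near 0. *Ccdc34* also keeps much of its level past 1.5π, and its lowest class means are 0.726 in culture 1 and 0.638 in culture 2. Those of *Ckap5* are 0.368 and 0.353.

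On the scale of UMIs per 10,000 total UMIs, which was recovered from the deposited values, the spindle genes went from near absence in G1 to a narrow maximum. *Hmmr* stood at 2.01 in culture 1 and 1.54 in culture 2 in the class from π to 1.25π, and at 0.0217 and 0.0159 in the class before 2π, a ratio of highest to lowest class of 92.6 and 96.9. *Nusap1* stood at 1.55 and 1.59 in that same class and at 0.0213 and 0.0221 from 0 to 0.25π, a ratio of 72.6 and 72.1. These ratios depend on the width of the classes, and over 20 classes they were 119 and 358 for *Hmmr* and 131 and 98.8 for *Nusap1*.

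*Prc1* stood at 2.84 and 2.69 at its highest and had a ratio of 50.9 and 61.0. *Ckap2l* stood at 0.984 and 0.947, with a ratio of 34.0 and 39.4, and *Dlgap5* at 0.464 and 0.413, with a ratio of 18.7 and 19.6. For these genes too the highest class was the one from π to 1.25π in both cultures, and the lowest class lay in G1.

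*Anln*, the ring scaffold, was the sparsest member, with a UMI in 14.8% and 9.25% of all cells. Between π and 1.25π it stood at 0.226 and 0.251 UMIs per 10,000 and was detected in 35.1% and 33.5% of cells. Between 1.5π and 1.75π in culture 1 it was found in 0 of 64 cells, where 3 counts of 64 allow a share of cells with a UMI of up to 4.69% and the exact 95% interval ends at 5.60%, so no ratio is given there; in culture 2 the ratio was 55.0.

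Another set of members kept a clear level outside G2 and mitosis. *Ckap2* had a ratio of highest to lowest class of 11.0 and 14.8, *Ccdc34* of 3.97 and 4.54, *Ckap5* of 3.92 and 4.22, and *Arl6ip1* of 3.55 and 4.62. *Ckap5* was detected in 42.9% and 31.3% of cells between 1.75π and 2π, and *Ccdc34* in 56.7% and 48.6%. *Ccdc34* was also high early: its level between 0.75π and π was 1.72 and 1.94 UMIs per 10,000, and the next class was 1.29 and 1.28 times as high, whereas *Hmmr* was 2.41 and 2.96 times as high in that step. *Arl6ip1* was detected in 97.9% and 80.6% of cells between 1.75π and 2π, and its lowest class was that from 0.25π to 0.5π, at 3.61 and 1.21 UMIs per 10,000. The next class, up to 0.75π, lay close to it at 3.66 and 1.36.

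Cells of different depth show different shares of detection, so the 7 members with the highest ratio of highest to lowest class (*Nusap1*, *Hmmr*, *Dlgap5*, *Ckap2*, *Ckap2l*, *Prc1* and *Anln*) were also counted per cell after thinning to 10000 UMIs, which left out 353 cells of culture 1 and 635 of culture 2 that were shallower. Between π and 1.25π, 44.2% of cells in culture 1 and 37.7% in culture 2 held a UMI of at least 5 of the 7 (74.7% and 65.7% without thinning). Between 1.25π and 1.5π these shares were 1.45% and 1.82% (9.41% and 6.09%). Between 1.75π and 2π, 74.5% and 79.2% of thinned cells held none of the 7 (57.9% and 68.6%), against 1.26% and 1.67% between π and 1.25π. The median thinned cell held 4 of the 7 between π and 1.25π in both cultures, 2 and 1.5 in the next class, and 0 between 1.75π and 2π.

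**Figure D2:**
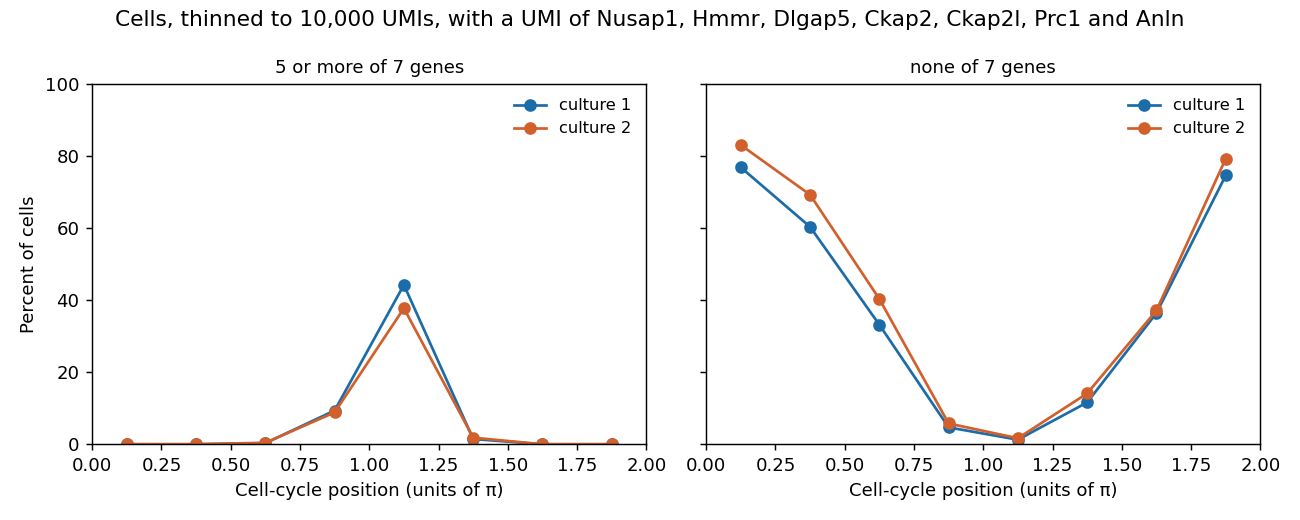
Percent of cells (vertical axes, 0 to 100) with a UMI of 5 or more (left) or of none (right) of 7 spindle and division genes in 8 classes of cell-cycle position of width 0.25π (horizontal axes, units of π), after thinning each cell to 10000 UMIs. In both cultures (blue, culture 1; orange, culture 2) the left share is highest and the right share lowest between π and 1.25π, at 44.2% and 37.7% on the left and 1.26% and 1.67% on the right.

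The maxima of the lines came in an order. They are positions of a smoothed line and not of the highest class. In the classes of width 0.1π, the mean log2 level of every member but *Arl6ip1* was highest between π and 1.2π in both cultures. At span 0.3 several of these lines were highest later than that. *Anln* was earliest (1.10π in culture 1 and 1.06π in culture 2), then *Prc1* (1.21π and 1.10π), *Nusap1* (1.24π and 1.12π) and *Ccdc34* (1.22π and 1.18π). *Ckap2l* (1.25π and 1.19π), *Hmmr* (1.26π and 1.22π), *Dlgap5* (1.31π and 1.22π), *Ckap2* (1.32π and 1.22π) and *Ckap5* (1.31π and 1.25π) followed. *Arl6ip1* was latest (1.42π and 1.38π). The median over the 10 members was 1.23π (1.26π and 1.20π in the cultures). Culture 1 was later than culture 2 for every member at this span, but with a span of 0.1 *Hmmr* (1.12π and 1.15π) and *Ckap5* (1.15π and 1.16π) came earlier in culture 1. At span 0.3, for neighbours in this order the values of the cultures touched or overlapped, apart from *Ckap5* and *Arl6ip1*. That reading takes in the offset between the cultures. Within each culture at this span *Anln* was earliest and *Prc1* next, while *Nusap1* and *Ccdc34* changed places. With a span of 0.1, *Anln*, *Nusap1* and *Ccdc34* shared the earliest maximum in culture 2. The order of the other 9 was thus alike in the cultures only in part, and at span 0.3 *Anln* did not overlap any gene from *Nusap1* on.

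The maximum of *Arl6ip1* minus the median of the other 9 was 0.178π, as the mean of 0.165π in the first culture and 0.190π in the other. The member had been named for this late maximum, so the difference restates the choice. Its size followed the width of the loess window: it was 0.208π with a span of 0.1, 0.225π with 2 harmonics and 0.0650π with a span of 0.5. With the narrow span the maxima of all members lay earlier, between 1.06π (*Anln*) and 1.16π (*Ckap2* and *Ckap5*) for the 9 and at 1.31π for *Arl6ip1*, as the mean of the cultures. *Arl6ip1* was latest in each of the 12 alternatives that were run.

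**Figure D3:**
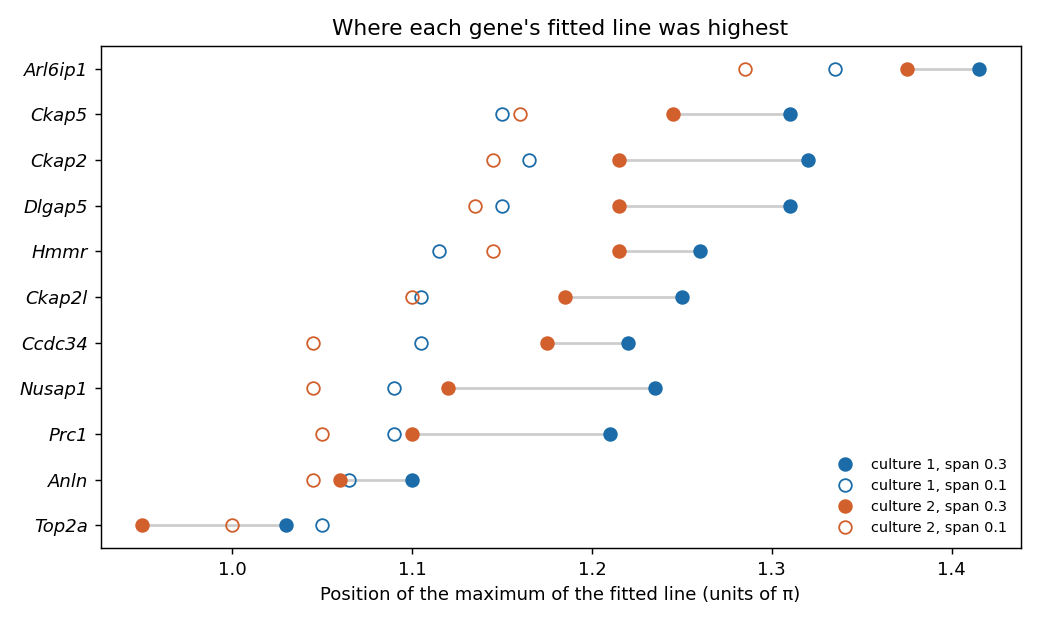
Position of the maximum of the fitted line (horizontal axis, units of π) for the 10 genes and for *Top2a*, one row per gene in the order of the mean of the cultures. Filled points are lines with a span of 0.3 and open points lines with a span of 0.1, blue for culture 1 and orange for culture 2; *Arl6ip1* is to the right of all others at either span, and the wider span moves most maxima to the right.

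What followed the maximum also differed among the members. From the class π to 1.25π to the class 1.25π to 1.5π, the level of *Prc1* went to 0.152 of its value in culture 1 and 0.168 in culture 2, and that of *Nusap1* to 0.174 and 0.150, against 0.0985 and 0.123 for *Top2a*. *Anln* kept 0.0364 and 0.139, the culture 1 value resting on 1.18% of 85 cells. *Ckap2l* kept 0.311 and 0.424, *Dlgap5* 0.384 and 0.434 and *Ckap2* 0.592 and 0.560. *Ckap5* kept 0.840 and 0.715 and *Ccdc34* 0.814 and 0.804. *Arl6ip1* was at 1.23 times its previous level in culture 1 and at 0.973 in culture 2. These ratios are of UMIs per 10,000, and they differ from those of the mean UMIs per cell. On the scale per cell *Arl6ip1* stood at 23.9 and then 18.1 UMIs in culture 1, and at 10.2 and then 7.28 UMIs in culture 2, a ratio of 0.756 and 0.714. *Ckap5* kept 0.518 and 0.524 per cell, and *Ccdc34* 0.502 and 0.590. *Prc1*, *Anln* and *Nusap1* thus had the lowest ratios of the 10 in this step on both scales. *Ckap2l*, *Dlgap5* and *Hmmr* fell as well, per cell to 0.192, 0.237 and 0.136 in culture 1 and to 0.311, 0.318 and 0.357 in culture 2. *Arl6ip1* was lower per cell in both cultures, and its ratio was the highest of the 10 on both scales.

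*Hmmr* kept 0.220 in culture 1 and 0.487 in culture 2 in this step, in UMIs per 10,000. Between 1.25π and 1.5π it was detected in 38.8% of cells in culture 1 (exact 95% binomial interval 28.4% to 50.0%) and in 56.3% in culture 2 (50.2% to 62.2%), although culture 2 was the shallower one. Between π and 1.25π the shares were 92.7% and 85.9%, the other way round. After thinning, the shares were 27.5% and 40.5% in the later class and 82.2% and 71.3% in the earlier one. The intervals cover counting error only, and with 1 culture on each side the difference has no replicate check.

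**Figure D4:**
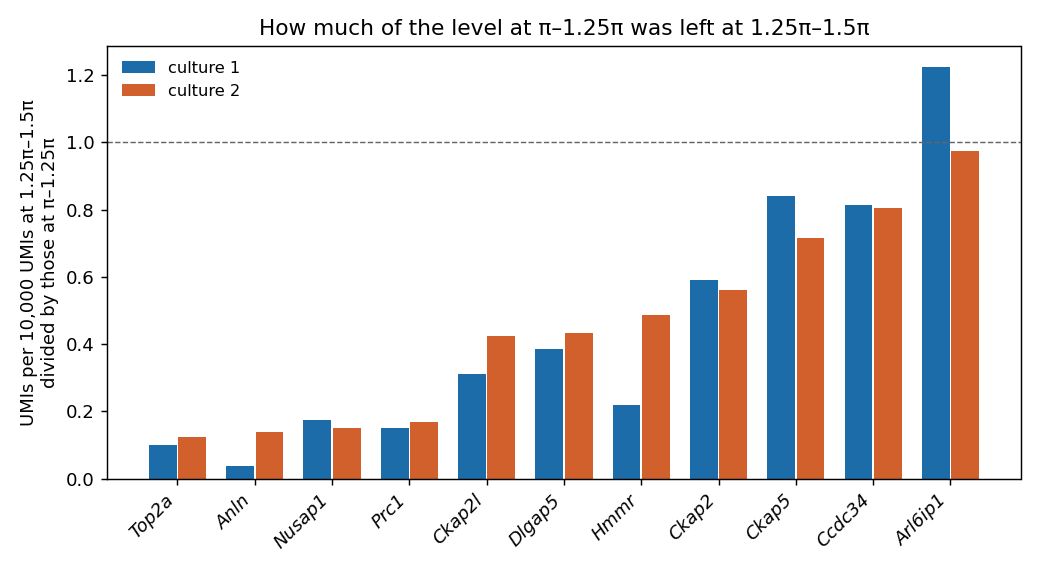
Ratio of UMIs per 10,000 UMIs between 1.25π and 1.5π to that between π and 1.25π (vertical axis, from 0) for the 10 genes and *Top2a* (horizontal axis, in the order of culture 2), with blue bars for culture 1 and orange bars for culture 2 and the dashed line at 1. *Top2a*, *Anln*, *Nusap1* and *Prc1* have bars below 0.2, *Ckap5* and *Ccdc34* above 0.7, and *Arl6ip1* stands at 1.23 and 0.973.

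*Arl6ip1* was followed class by class. In culture 1 its level was 3.69 UMIs per 10,000 between 0.8π and 0.9π, 4.54 in the next class, 8.20 from π to 1.1π and 12.7 from there to 1.2π. It was then 13.4 and 13.7 up to 1.4π, and between 10.4 and 10.6 in each of the 4 classes from 1.4π to 1.8π. In culture 2 the same classes read 1.39, 2.06, 3.85 and 6.60 up to 1.2π, then 6.31, 5.13 and 5.18 up to 1.5π, and 4.21 to 4.39 from 1.5π to 1.8π. The increase was thus first seen in the class from 0.9π in both cultures, and from 1.2π on the level in culture 2 stayed below its value between 1.1π and 1.2π, in the arc where *Prc1* and *Nusap1* were already low.

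From 1.8π to 1.9π *Arl6ip1* was still at 7.61 and 2.59, and in the last class it was at 3.92 and 1.31, its G1 level. In UMIs per 10,000 the highest of the 20 classes in culture 1 was that from 1.3π to 1.4π, with 32 cells, and in culture 2 that from 1.1π to 1.2π, with 614 cells. In mean UMIs per cell the highest class was that from 1.1π to 1.2π in both cultures, with 28.0 and 12.1. By the line at span 0.3, the fall to the middle of the range was reached at 1.65π and 1.68π for *Arl6ip1* in cultures 1 and 2, against 1.54π and 1.45π for *Nusap1*. With a span of 0.1 it was reached at 1.84π in both cultures for *Arl6ip1* and at 1.33π and 1.31π for *Nusap1*. *Ccdc34* reached it as late as *Arl6ip1* at the span of 0.1, at 1.855π and 1.835π. At span 0.3 *Ccdc34* reached it at 1.58π and 1.60π. A late fall was thus not particular to *Arl6ip1*.

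Only 1 of the 10 members, *Arl6ip1*, had the maximum of its line between 1.25π and 1.75π in both cultures, which held for 34 genes of the table (0.319%). Of these 34, 18 reached an R² of 0.2 in each culture. With a mean maximum after that of *Arl6ip1* and up to 1.75π there were 5 of the called genes. The genes most like *Arl6ip1* over the means of 20 classes, by the lower of the r values of the cultures, were *Tacc3* (0.961), *Cenpa* (0.950), *Vbp1* (0.941), *Knstrn* (0.935) and *Ccnb2* (0.929). *Tacc3* recruits chTOG, the product of *Ckap5*, to spindle microtubules, *Cenpa* encodes the centromeric histone H3 variant, *Knstrn* a kinetochore protein, *Ccnb2* a mitotic cyclin and *Vbp1* a subunit of the prefoldin chaperone. The maxima of *Tacc3* were at 1.40π and 1.41π and those of *Cenpa* at 1.36π and 1.35π. These correlations share cells, classes and the position, and likeness says nothing of shared control.

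For the other members the most similar genes were mostly mitotic. *Nusap1* and *Prc1* were nearest to each other (0.987), with *Kif23* (0.973) next for *Nusap1* and *Kif4* (0.983), the kinesin that works with PRC1, next for *Prc1*. *Hmmr* was nearest to *Kif22* (0.980) and *Ckap2l* (0.976), and *Ckap2l* to *Hmmr* and *Bub1b* (0.975). *Dlgap5* was nearest to *Ect2* (0.971) and *Cks2* (0.966), *Ckap2* to *Tpx2* (0.974) and *Cenpf* (0.970), and *Anln* to *Cdca2* (0.979) and *Incenp* (0.978). *Ccdc34* was nearest to *Pmf1* (0.942) and *Ncaph2* (0.932), and *Ckap5* to *Ubald2* (0.914) and *Parpbp* (0.911). The related *Ckap2* and *Ckap2l* were thus not among each other's nearest genes.

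Cell by cell, the 45 pairs of members had a median correlation of 0.360 in culture 1 and 0.367 in culture 2. After the line along the position was taken out, the median was 0.0543 and 0.0585, and 15 and 10 pairs exceeded 0.1. *Nusap1* and *Prc1* kept the most (0.344 at the lower of the cultures), followed by *Nusap1* and *Hmmr* (0.189) and by *Hmmr* and *Prc1* (0.167). *Arl6ip1* kept 0.106 with *Ccdc34* and 0.0585 or less with each of the others. Depth and any error in the position are shared by the genes of a cell, so these values are descriptions.

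Other genes of the same processes were taken from lists that do not include the members. Of 35 spindle assembly genes in the table, 20 passed an R² of 0.05 in both cultures (57.1%), with a median maximum of 1.18π and a range from 0.755π to 1.40π. *Tpx2*, which activates Aurora A, had the highest lower R² (0.692), followed by *Aurka* itself (0.404), *Aspm* (0.387), a pole protein that is mutated in microcephaly, and *Knstrn* (0.384). Of 30 genes of the midzone and of cytokinesis, 13 passed (43.3%), with a median maximum of 1.19π. *Cdca8* (0.742), *Birc5* (0.678) and *Incenp* (0.388), all of the chromosomal passenger complex, and *Racgap1* (0.498) of centralspindlin led that list. The share over all genes was 3.90%, and the median lower R² was 0.0561 and 0.0155 in these lists and 0.00150 over all genes. The maxima of 15 of the 20 and 12 of the 13 lay between 0.75π and 1.25π.

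Genes that share the organelle of *Arl6ip1* were read in the same way. Of 28 genes that shape the endoplasmic reticulum, 0 passed the threshold, against 3.90% of all genes. For a list of this size the count is close to that share. The median lower R² was 0.00284, against 0.00150 over all genes. *Lnpk*, which stabilises the junctions where tubules meet, had the highest lower R² (0.0176), then *Arl6ip5* (0.0124), *Rtn4* (0.0118) and *Reep1* (0.0103). *Arl6ip1* itself had 0.267, and its line ranged over 2.17 and 2.44 on the log2 scale.

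The stages deposited by the authors gave another reading, though one that is not independent of the members. The G2M list of Seurat holds 7 of them (not *Prc1*, *Ccdc34* or *Arl6ip1*), and the marker pairs of cyclone hold all but *Hmmr* and *Ccdc34*. By Seurat and by cyclone every member was highest in G2M in both cultures. With Seurat, *Ccdc34*, which neither list holds, stood at 2.12 and 2.35 UMIs per 10,000 in G2M and at 0.585 and 0.571 in G1, and *Arl6ip1* at 8.85 and 5.05 in G2M with its lowest level in S (3.74 and 1.37). By cyclone the lowest stage of *Arl6ip1* was G1 instead (4.33 and 1.72).

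By SchwabeCC, which splits mitosis further, *Arl6ip1* was highest in G2.M (8.95 and 4.94) and next in M.G1 (6.65 and 2.50), above G2 (5.07 and 2.45), while G1.S held its lowest level (3.58 and 1.33). *Nusap1* stood at 0.787 and 0.859 in G2 and at 0.166 and 0.109 in M.G1, its lowest stage. *Prc1* too was highest in G2 and lowest in M.G1, by 3.75 and 6.43 times. These stage groups were mixed in position. Of the cells staged G2, 249 of 436 in culture 1 and 327 of 541 in culture 2 lay in the arc of G1 and G0. *Arl6ip1* stood at only 3.18 and 1.11 in those cells. Of the cells staged G2.M, 282 of 547 and 262 of 665 lay in that arc too. The order of the stages without these cells was not computed. The stages were called from expression in the same cells, and whether members are among the SchwabeCC genes was not checked. They are therefore no separate check of the course along the angle.

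Over all cells, the cultures lay closer to each other in the other members than in *Arl6ip1*. The latter stood at 5.48 UMIs per 10,000 in culture 1 and 2.43 in culture 2, a ratio of 2.25, and in the 8 classes of the position the ratio lay between 1.87 (π to 1.25π) and 2.98 (0.25π to 0.5π). After thinning to 10000 UMIs, *Arl6ip1* was detected in 94.2% and 76.9% of cells. The thinned cells drew from the same recovered UMIs, so these shares are no separate check of the ratio. The median over the 8 classes of the same ratio was 0.884 to 1.36 for the other 9 members. Single classes spread further, from 0 to 3.11 for *Anln*, from 0.491 to 1.97 for *Dlgap5* and from 0.446 to 1.61 for *Hmmr*, which stood at 0.621 and 0.382 UMIs per 10,000 over all cells. Among 8063 genes whose UMIs could be recovered in both cultures, 30 (0.372%) had a larger ratio than *Arl6ip1*.

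The deposited values hide most of this difference. Their log2(value + 1) carries a shift that is one number per gene and culture, which for *Arl6ip1* was -0.394 in culture 1 and 0.440 in culture 2, and 15 of the 8063 genes (0.186%) had a larger difference of shifts in size. With the values as deposited, the ratio of the cultures for *Arl6ip1* was 1.16. Over the 8063 genes, the difference of shifts had a correlation of -0.824 with the log2 ratio of the cultures. The ratio is computed with the shift, so an error in the shift enters both. For the other 9 members the shift lay between -0.0380 and 0.0940. By its methods the study integrated the cultures with Seurat, and whether this gave the shift is not given in the sources used here. Since it is a constant within a gene and culture for nonzero values, undoing it left the maxima almost as they were, with *Arl6ip1* at 1.40π and the other members' median 0.178π before it.

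**Figure D5:**
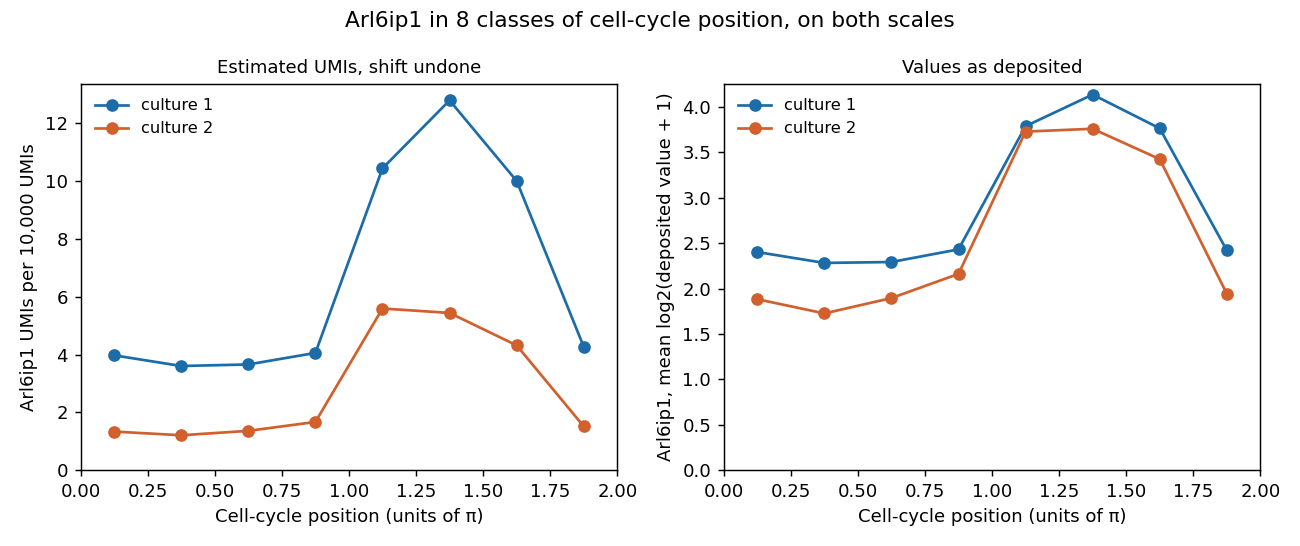
*Arl6ip1* in 8 classes of cell-cycle position of width 0.25π (horizontal axes, units of π), as UMIs per 10,000 total UMIs with the shift undone (left) and as mean log2(value + 1) of the deposited values (right), both from 0, blue for culture 1 and orange for culture 2. On the left culture 1 lies 1.87 to 2.98 times above culture 2 in every class, and on the right the curves nearly meet between π and 1.25π.

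Markers of other cell types also differed between the cultures, of which culture 1 was the deeper. *Pdgfra* was detected in 8.77% and 1.81% of cells, *Sox10* in 4.26% and 0.751%, *Dcx* in 7.34% and 1.56% and *S100b* in 18.6% and 6.65%. Of the 9 detected markers of neurons, oligodendrocyte progenitors and astrocytes, *Rbfox3* and *Cspg4* went the other way. In cells with no UMI of *Pdgfra*, *Sox10*, *Dcx* or *S100b*, *Arl6ip1* stood at 5.35 and 2.44 UMIs per 10,000, a ratio of 2.19. With 1 library per culture, library, culture and cell makeup cannot be told apart.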

How the data were processed

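RNA of single cells from 2 neurosphere cultures was measured with 10x Genomics 3′ chemistry. Per the labels' processing notes and the study's methods, the authors obtained estimated counts with Alevin (Salmon 1.3.0) on GRCm38 with spliced transcripts as expression, and removed outlying cells (doublet scores included), mitochondrial genes and rarely expressed genes. By the same methods the cultures were integrated with Seurat 3.2.2. The deposited expression table is a signal, normalized for depth per cell on a linear scale, and a further shift of log2(value + 1) per gene and culture was found here from the values. Whether the integration gave it is not given in the sources used here. The deposited table of cells gives total UMIs as estimated counts (expected counts), and as other values the position and stages. The labels name version v2 of the kit and the study another version.

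No doublet caller, cell filter or clustering was added. All cells of the table were mapped to a culture (0 columns were left out). Loess lines (degree 2, span 0.3, tripled data, grid of 401 positions) were fitted to all 10666 genes in each culture. A gene was called at an R² of 0.05 in both. Nonzero values were read as k × (n/s + 1) − 1, with n UMIs, s the cell's size factor and k the shift, and k was taken where n came closest to whole numbers. This gave UMIs for 8063 genes in both cultures, of genes with at least 100 nonzero values. Alevin estimates need not be whole, and of the values up to about 6 UMIs, 53.9% of those of *Arl6ip1* in culture 1 and 77.2% in culture 2 lay within 0.1 of a whole number. Thinned cells drew from rounded UMIs. The lines and the recovery were tested on simulated data. The simulated UMIs were whole numbers with lower means than the 11.3 per cell of *Arl6ip1* in culture 1, so that case was not covered. The plan had assumed values that only differ by depth, and this shift was found after the data were seen.

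The members, lists and tests were chosen with earlier results of these data known. With 1 condition and 2 cultures no test was run, and values are given per culture. Intervals are exact 95% binomial (Clopper-Pearson) and cover counting error only. Named genes are the members, the 2 genes most like each (5 for *Arl6ip1*), the 4 leading genes of each list and *Top2a*. Symbols and coordinates came from GENCODE vM21 (the study used M25), and promoters from RefSeq on GRCm38.p6. Alternatives were other spans, 2 harmonics, another pseudocount, a scale per cell, depth regressed out, a position rebuilt from 83 genes without the members, other thresholds, a filter on detection, 1 line over both cultures and each culture left out, and, chosen after seeing the data, the shift undone, shared barcodes left out, steps between classes in UMIs per cell and, for the culture ratio of *Arl6ip1*, the shift left in or cells with markers of other types left out. Tools were Python 3.11.15 with numpy 2.4.6, scipy 1.17.1, pandas 2.3.3 and matplotlib 3.10.9, and R 4.3.3 with Seurat 5.3.0 and scran 1.30.0 for stage lists.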

Additional observations from a re-analysis of the deposited data

How the results depend on the processing

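All 10 members passed an R² of 0.05 in both cultures under each alternative, and all 10 passed at thresholds of 0.02 and 0.1. The lowest R² of any member under any alternative was 0.119 (*Anln* with depth regressed out). The median maximum of the members moved to 1.12π with a span of 0.1 and to 1.16π with 2 harmonics, and otherwise stayed within the spread of the cultures, from 1.20π to 1.26π when a culture was left out. The lag of *Arl6ip1* behind the median of the other 9 members moved to 0.208π with a span of 0.1, to 0.0650π with a span of 0.5 and to 0.225π with 2 harmonics. It was 0.165π to 0.190π when a culture was left out, and 0.160π with the position rebuilt without the members, with the scale per cell and with depth regressed out. The rebuilt position had a circular correlation with the authors' position of 0.934 in culture 1 and 0.914 in culture 2. The culture ratio of *Arl6ip1* moved from 2.25 to 1.16 with the shift left in and to 2.19 without cells that held a UMI of *Pdgfra*, *Sox10*, *Dcx* or *S100b*. For single members, 246 values of maximum, range or R² stayed within the spread of the cultures and 114 moved beyond it. Maxima and ranges are positive by definition, so a change of sign was not possible for them. Leaving a culture out moves a mean of the 2 cultures by less than this spread by construction, so that alternative is no check of maxima and ranges. No paired analysis was possible because there is 1 group. Few cells past 1.25π limit the late maxima, and 2 cultures limit every spread.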
